A study of Homo sapiens with 8 samples.

Results

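The 6 genes described here are TC2N, SYTL4, SRPX2, ATP8A1, ZNF300 and GPR97. They were picked by symbol, from 25369 genes in the count table, because they stood far above unmodified cells in at least 1 of 3 edited lines of a breast cancer cell line. All 6 were among the 14016 genes that passed the filter on low counts. Because the choice rested on the comparisons with unmodified cells, those differences are given as a description with no test, and tests are given only between the edited lines and for other genes. The choice did not take the largest increases of the whole table. Ordered by the smallest of the 3 log2 fold changes against unmodified cells, TC2N was at place 23 of 14016, SRPX2 at 29, SYTL4 at 35, ZNF300 at 41, ATP8A1 at 43 and GPR97 at 86. Among the 10866 genes with a mean of at least 5 CPM (counts scaled by library size and TMM factor) over the 8 libraries, the same genes were at places 3, 4, 6, 7, 8 and 16. In all, 63 genes (0.449% of those tested) were at least 4-fold higher in all 3 lines.

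The study sequenced RNA of MDA-MB-231 cells, an established human triple-negative breast cancer line, in 4 groups of 2 libraries. LBD cells carried a SUN2 without residues 1 to 139, the part that binds lamins; Kashlid cells carried a SUN2 without residues 569 to 585, the part meant to reach Nesprin-2G; SUN2KO cells were a SUN2 knockout; WT cells were unmodified. The labels do not say in which cells the truncations were made, how they were introduced, whether a line is 1 clone, or whether both libraries of a group stem from independent cultures, and p-values here therefore reflect library-to-library spread alone, possibly only technical spread. Library totals ran between 16570099 and 18814795 counts. SUN2 itself, which checks the labels, had 562 and 579 counts in LBD, 643 and 603 in Kashlid and 474 and 564 in SUN2KO, against 1408 and 1441 in WT; transcript was lower in every edited line but not absent, and counts per gene do not show the protein. The markers of a mesenchymal triple-negative line (VIM, CD44, AXL, FOSL1 and CAV1) were above 1 CPM in all groups. Their summed level was 915 to 957 CPM in LBD, 807 to 819 in Kashlid and 792 to 825 in SUN2KO, against 946 to 974 in WT. The single markers differed. Over the edited libraries VIM was at 281 to 341 CPM (400 and 408 in WT) and CAV1 at 48.0 to 64.2 (89.2 and 93.9 in WT). CD44 was at 407 and 420 CPM in LBD and 310 to 343 in Kashlid and SUN2KO, against 329 and 337 in WT. AXL was at 95 to 111 CPM (104 and 112 in WT) and FOSL1 at 17.8 to 29.2 (24.7 and 23.3 in WT). The hormone receptor genes ESR1 and PGR were under 1 CPM in all. The summed level of 9 luminal breast markers, most of it from the keratins KRT8 and KRT18, was 2010 to 2030 CPM in LBD, 1660 to 1860 in Kashlid and 2420 to 2450 in SUN2KO, against 1540 to 1580 in WT. The luminal sum was thus higher in every edited line, as the 6 genes were, and the mesenchymal sum was lower in Kashlid and SUN2KO; the part of either in the levels of the 6 genes was not tested. GPR97 is a receptor best known from granulocytes. The 9 granulocyte and myeloid markers, with MPO and FCGR3B at 0 in all libraries, summed to 1.91 to 3.29 CPM in LBD, 2.02 to 2.35 in Kashlid and 1.46 to 1.5 in SUN2KO, against 1.13 to 1.48 in WT. S100A9 among them had 0.868 and 1.79 CPM in LBD, 1.04 and 1.23 in Kashlid, and 0.162 and 0.161 in SUN2KO, against 0.297 and 0.114 in WT. The low sum and S100A9 were higher in the truncation lines than in SUN2KO, as GPR97 was, but CD14 and ELANE were not. CD14 had 0.521 and 0.837 CPM in LBD, 0.405 and 0.88 in Kashlid, and 1.03 and 0.752 in SUN2KO. ELANE had 0 and 0.0598 CPM in LBD, 0.173 and 0 in Kashlid, and 0.108 and 0.269 in SUN2KO. The part of these markers in the level of GPR97 was not tested.

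As background, the 6 genes belong to unrelated families, several of which act at membranes. SYTL4 encodes granuphilin, a synaptotagmin-like protein that binds the small GTPase Rab27 and holds secretory granules at the plasma membrane, and TC2N encodes a protein with tandem C2 domains, the lipid-binding fold also found in synaptotagmins. SRPX2 is a secreted sushi repeat protein and a ligand of the urokinase receptor; ATP8A1 is a flippase, a P4-type ATPase that moves phosphatidylserine to the cytosolic side of membranes together with a CDC50 subunit. GPR97, now named ADGRG3, is an adhesion G protein-coupled receptor, and ZNF300 is a KRAB zinc finger protein, a class of DNA-binding factors of which many recruit the co-repressor TRIM28.

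Promoters are shown for the neighbouring pair SRPX2 and SYTL4 and for TC2N, the genes with the largest of the 6 increases. RefSeq promoters on GRCh38.p14, 250 bases before to 50 bases after each annotated start, were found for 5 of the 6 genes (GPR97 had no entry), 7 promoters in all, since TC2N and SYTL4 have 2 starts each. The starts are 31081 bases apart in TC2N and 587 in SYTL4, and counts per gene do not show which one was used. Capitals mark any match, on either strand, to 6 motifs: the TATA box (TATAAA), the CCAAT box, the GC box (GGGCGG), the AP-1 motif (TGANTCA), the E-box (CACGTG) and the interferon-stimulated response element. Matches may overlap.
SRPX2, chrX:100643949-100644248, plus strand: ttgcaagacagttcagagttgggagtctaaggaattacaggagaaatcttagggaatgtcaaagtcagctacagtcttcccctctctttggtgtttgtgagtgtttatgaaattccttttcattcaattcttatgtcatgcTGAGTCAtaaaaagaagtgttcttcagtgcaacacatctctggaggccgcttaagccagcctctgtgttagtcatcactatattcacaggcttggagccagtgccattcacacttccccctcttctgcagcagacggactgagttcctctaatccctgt
SYTL4 start 1, chrX:100732072-100732371, minus strand: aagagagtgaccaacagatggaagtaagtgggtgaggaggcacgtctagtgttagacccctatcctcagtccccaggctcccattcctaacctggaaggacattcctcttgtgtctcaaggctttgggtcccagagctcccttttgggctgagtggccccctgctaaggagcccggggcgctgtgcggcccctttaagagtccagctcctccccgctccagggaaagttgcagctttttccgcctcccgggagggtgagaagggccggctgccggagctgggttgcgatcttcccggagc
SYTL4 start 2, chrX:100731485-100731784, minus strand: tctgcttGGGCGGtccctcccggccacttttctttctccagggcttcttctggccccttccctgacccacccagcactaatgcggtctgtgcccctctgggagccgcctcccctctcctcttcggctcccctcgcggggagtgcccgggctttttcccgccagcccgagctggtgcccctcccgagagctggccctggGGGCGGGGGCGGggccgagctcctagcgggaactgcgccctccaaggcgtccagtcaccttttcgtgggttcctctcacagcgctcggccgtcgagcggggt
TC2N start 1, chr14:91867487-91867786, minus strand: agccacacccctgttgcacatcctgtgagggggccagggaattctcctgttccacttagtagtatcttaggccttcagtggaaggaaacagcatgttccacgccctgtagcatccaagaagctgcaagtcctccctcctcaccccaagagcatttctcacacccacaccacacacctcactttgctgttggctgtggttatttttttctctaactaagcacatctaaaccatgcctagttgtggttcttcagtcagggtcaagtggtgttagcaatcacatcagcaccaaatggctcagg
TC2N start 2, chr14:91836406-91836705, minus strand: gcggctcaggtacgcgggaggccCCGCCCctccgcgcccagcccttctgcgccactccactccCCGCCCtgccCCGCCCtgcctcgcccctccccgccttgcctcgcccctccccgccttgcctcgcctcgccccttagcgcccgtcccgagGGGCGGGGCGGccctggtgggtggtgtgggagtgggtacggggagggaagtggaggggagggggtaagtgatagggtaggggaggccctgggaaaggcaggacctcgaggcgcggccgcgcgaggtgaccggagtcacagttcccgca

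The 5 genes had no sequence feature in common among those counted. The SRPX2 promoter holds a TGANTCA match (the AP-1 motif) beginning at base -109 from the start and none of the other motifs; 7.71% of 35114 promoters of the same length hold that motif. GGGCGG, the GC box, which 45% of all promoters hold, had 5 matches at TC2N start 2, 3 at SYTL4 start 2 and 6 in the ATP8A1 promoter, and none at TC2N start 1, SYTL4 start 1, SRPX2 or ZNF300. ZNF300 had a CCAAT match, found in 34.6% of promoters, beginning at base -178. The TATA box, the E-box and the interferon element, found in 11.5%, 7.26% and 3.57% of promoters, had 0 matches in the 7. CpG density also differed: the ratio of observed to expected CpG was 0.06 at TC2N start 1 and 0.14 at SRPX2, 0.40 at SYTL4 start 1, and 0.64 to 0.87 at SYTL4 start 2, TC2N start 2, ZNF300 and ATP8A1, where the median of all promoters was 0.58. A match describes letters in these windows and not a bound site.

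**Figure D1:**
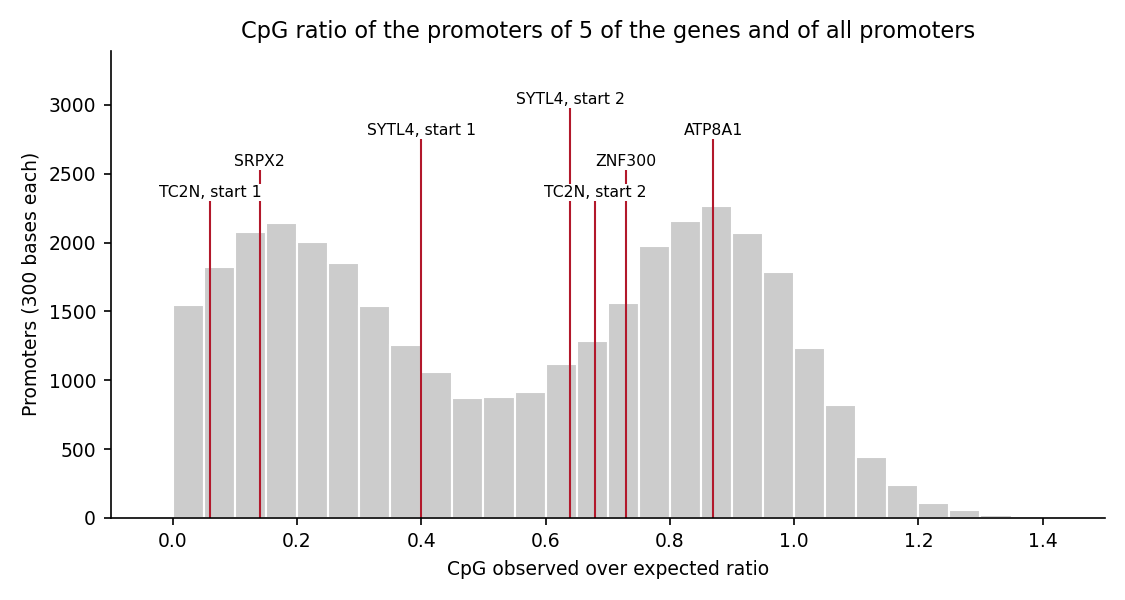
Ratio of observed to expected CpG in 35114 RefSeq promoters of 300 bases (grey bars, number of promoters per bin), with the 7 promoters of 5 of the genes as red lines. TC2N start 1 and SRPX2 lie in the CpG-poor group at 0.06 and 0.14, and ATP8A1 lies highest at 0.87.

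SYTL4 and SRPX2 lie next to each other on the X chromosome. SYTL4 had 17.1 and 17.6 CPM in LBD, 15.6 and 16.1 in Kashlid, and 9.31 and 12.4 in SUN2KO, against 1.66 and 1.76 in WT. Its levels ran in the order LBD, Kashlid, SUN2KO and WT, but LBD against Kashlid did not pass (adjusted p = 0.675, edgeR). SRPX2 had 13.9 and 14.2 CPM in LBD, 10.1 and 10.3 in Kashlid, and 12.8 and 11.7 in SUN2KO, against 1.49 and 1.25 in WT. Its order was LBD, SUN2KO, Kashlid and WT, so the places of Kashlid and SUN2KO were exchanged relative to SYTL4. In WT, both genes rested on few reads, 28 and 31 counts for SYTL4 and 25 and 22 for SRPX2, which limits the precision of every fold against WT. In such bulk samples, more cells with a transcript and more transcript per cell cannot be told apart.

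TC2N had 18.8 and 21.9 CPM in LBD, 29.6 and 26.8 in Kashlid, and 22.9 and 25.9 in SUN2KO, against 2.62 and 2.44 in WT (44 and 43 counts). Kashlid was highest and LBD lowest of the edited lines, but neither passed against SUN2KO (adjusted p = 0.197 and 0.126, edgeR). ZNF300 had 24.2 and 26.3 CPM in LBD, 25.9 and 23.5 in Kashlid, and 24.0 and 22.2 in SUN2KO, against 4.52 and 4.03 in WT. Here the edited lines were hard to tell apart, since LBD overlapped Kashlid and Kashlid overlapped SUN2KO, while every edited library was above both WT libraries.

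ATP8A1 had 11.2 and 9.09 CPM in LBD, 13.8 and 12.4 in Kashlid, and 12.3 and 13.4 in SUN2KO, against 1.49 and 2.56 in WT. Its WT libraries, with 25 and 45 counts, were the farthest apart of the 6 genes, and Kashlid and SUN2KO overlapped. GPR97 had 10.2 and 13.6 CPM in LBD, 12.5 and 10.2 in Kashlid, and 6.60 and 4.19 in SUN2KO, against 1.37 and 1.76 in WT. SUN2KO thus lay between WT and the truncation lines, and LBD and Kashlid overlapped.

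**Figure D2:**
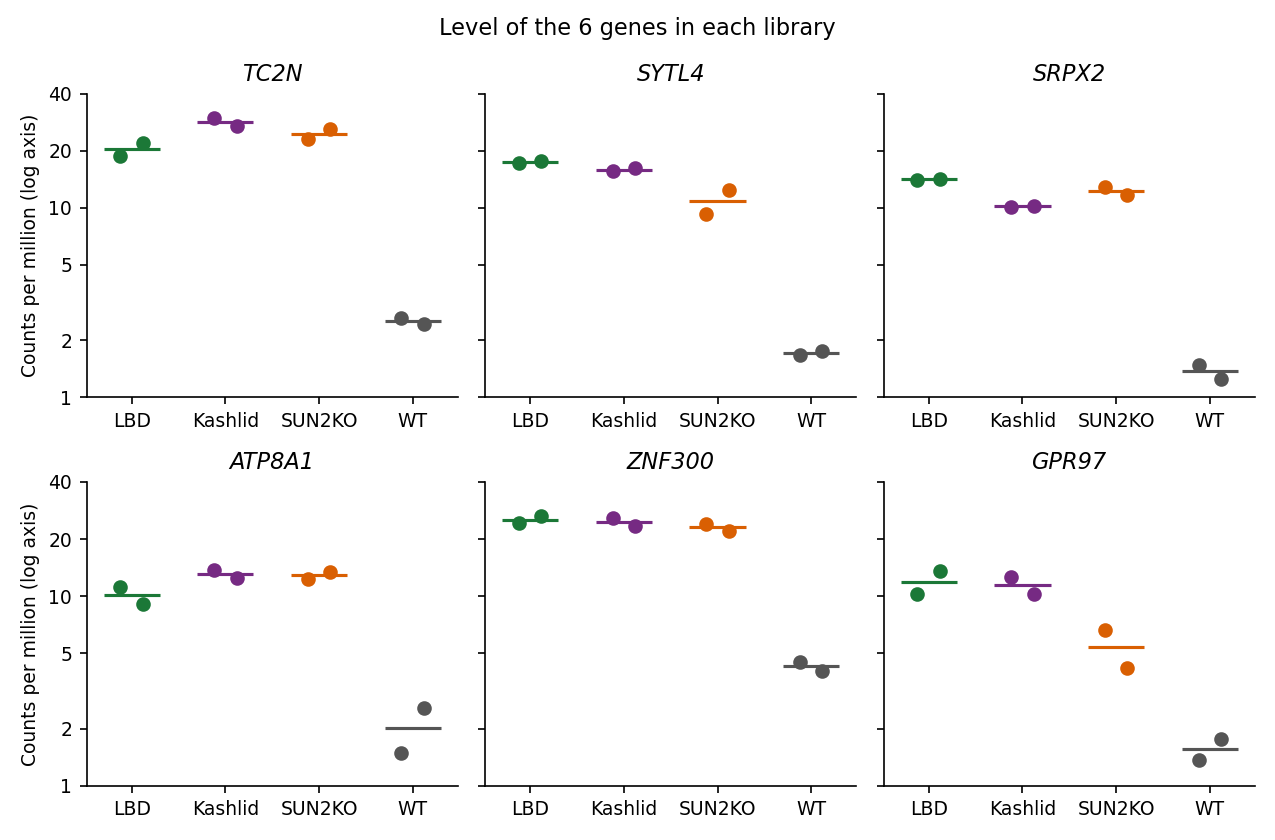
Level of each of the 6 genes in every library, in CPM on a log axis; points are the 2 libraries of a group and the line is their mean. All 6 edited libraries of each gene lie above both WT libraries, and GPR97 in SUN2KO (4.19 and 6.60 CPM) lies between WT and the truncation lines.

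Against WT, the edited libraries did not overlap WT for any of the 6 genes. The rule chose them for a high level in at least 1 line, so nothing is read from it. The share of all genes without such overlap was not counted. By a different measure, 19% of all genes were called higher and 21% lower in LBD, 21.7% and 22.7% in Kashlid, and 17.5% and 19.1% in SUN2KO (edgeR's quasi-likelihood test, Benjamini-Hochberg adjusted p under 0.05). For TC2N the log2 fold changes were 3.0 ± 0.16 (SE) in LBD, 3.48 ± 0.15 in Kashlid and 3.27 ± 0.15 in SUN2KO; Kashlid was 11.1-fold above WT. SYTL4 was at 3.33 ± 0.18, 3.20 ± 0.19 and 2.66 ± 0.19 in the same order of lines, and SRPX2 at 3.36 ± 0.19, 2.89 ± 0.19 and 3.16 ± 0.19. SYTL4 was thus 10.1-fold above WT in LBD and 6.3-fold in SUN2KO. ATP8A1 stood at 2.31 ± 0.21, 2.68 ± 0.20 and 2.66 ± 0.20, and ZNF300 at 2.56 ± 0.13, 2.53 ± 0.13 and 2.43 ± 0.13, the narrowest range of the 6. GPR97 had the widest, 2.92 ± 0.25 in LBD and 2.85 ± 0.25 in Kashlid but 1.78 ± 0.27 in SUN2KO. At 4-fold, a size that 1.21% of tested genes reached in LBD, 1.19% in Kashlid and 0.835% in SUN2KO, the 6 genes were all inside in LBD and Kashlid, and GPR97 was outside in SUN2KO. These comparisons share the WT libraries, so the likeness of their values is not evidence from separate measurements. For LBD, the authors' deposited table gives log2 fold changes of 3.01 for TC2N, 3.34 for SYTL4, 3.37 for SRPX2, 2.32 for ATP8A1, 2.56 for ZNF300 and 2.93 for GPR97.

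The rule does not compare edited lines, but choosing genes high in at least 1 line can favour those that differ between lines. The adjusted p-values of the 6 genes are therefore not independent of the choice. Between the edited lines, GPR97 differed most. It was higher in LBD than in SUN2KO by 1.14 ± 0.20 (log2, SE; 2.2-fold, adjusted p = 0.000464) and higher in Kashlid than in SUN2KO by 1.08 ± 0.20 (2.11-fold, adjusted p = 0.000695), in edgeR's quasi-likelihood test with adjustment over all genes. Its difference between LBD and Kashlid did not pass, at 0.06 with a 95% interval of -0.33 to 0.45. SYTL4 was also higher in LBD than in SUN2KO, by 0.68 ± 0.14 (1.6-fold, adjusted p = 0.00153), and in Kashlid than in SUN2KO, by 0.55 ± 0.14 (1.46-fold, adjusted p = 0.00725). Its difference between LBD and Kashlid was 0.13 ± 0.13 (adjusted p = 0.675). Both SYTL4 calls depended on SUN2KO replicate 1, without which they were 0.48 (adjusted p = 0.0716) and 0.35 (adjusted p = 0.176). GPR97 passed in every alternative run, with largest adjusted p 0.0248 for LBD and 0.0295 for Kashlid against SUN2KO. Against SUN2KO, 2 of the 6 genes therefore passed in LBD and the same 2 in Kashlid, where 13.5% and 18% of all tested genes passed.

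TC2N was the only one of the 6 that passed between the truncation lines, lower in LBD than in Kashlid by -0.47 ± 0.11 (log2, SE; adjusted p = 0.0212, edgeR), where 2.91% of all genes passed. That call was lost without LBD replicate 1 (-0.36, adjusted p = 0.231), without Kashlid replicate 1 (-0.40, adjusted p = 0.123) and in a fit of these 2 groups alone (-0.47, adjusted p = 0.064). SRPX2 had the same size with the other sign, higher in LBD than in Kashlid by 0.47 ± 0.14, with adjusted p = 0.0653 in edgeR and a 95% interval of 0.19 to 0.75. Of the alternatives, it passed with no filter on low counts (adjusted p = 0.0465). Against SUN2KO, TC2N was at -0.26 ± 0.11 in LBD and 0.21 ± 0.11 in Kashlid, and SRPX2 at 0.20 ± 0.13 in LBD and -0.26 ± 0.14 in Kashlid, none of which passed (adjusted p = 0.126, 0.197, 0.367 and 0.197 in edgeR). ATP8A1 was at -0.37 ± 0.16 for LBD against Kashlid and -0.34 ± 0.16 for LBD against SUN2KO, with adjusted p = 0.237 and 0.173 in edgeR. For ZNF300 the 95% intervals were -0.18 to 0.25 for LBD against Kashlid, -0.09 to 0.34 for LBD against SUN2KO and -0.12 to 0.31 for Kashlid against SUN2KO. Differences between the edited lines larger than 0.34 (log2) in either direction are outside these intervals for ZNF300. The choice of genes high in at least 1 line can favour those that differ between lines, so these counts are read only beside the share of all genes.

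**Figure D3:**
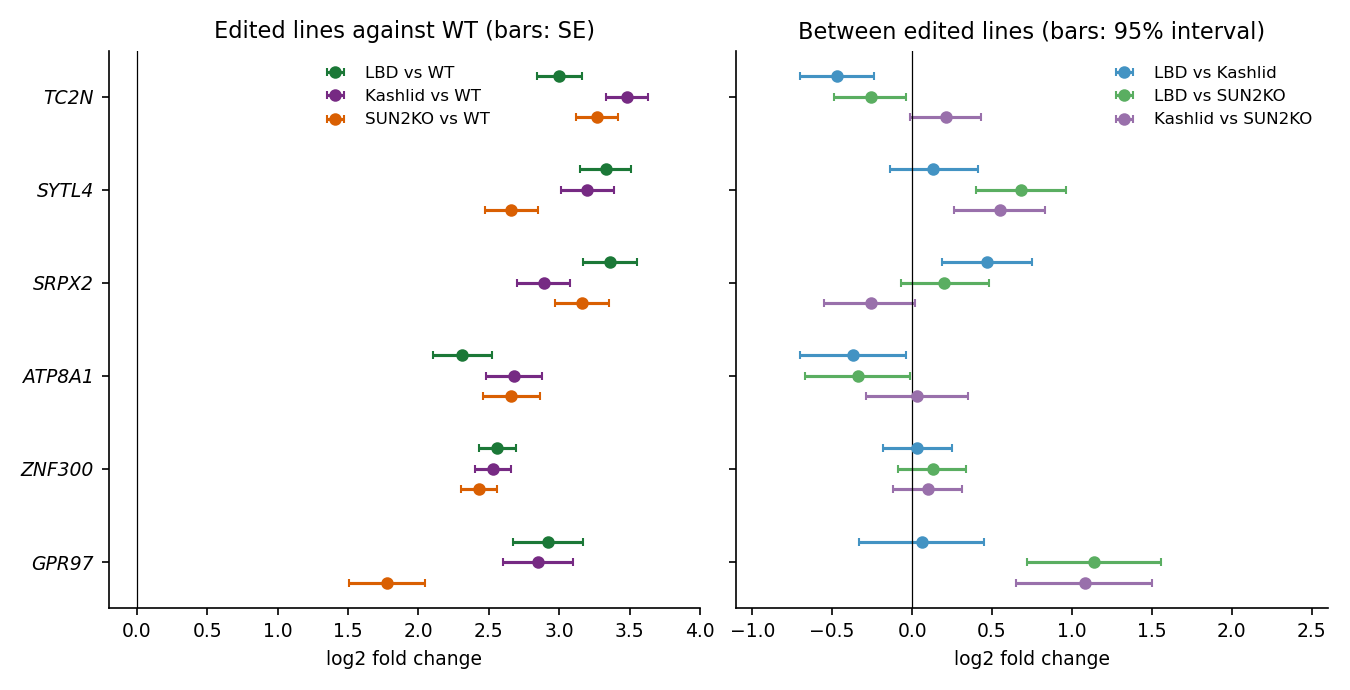
Log2 fold changes of the 6 genes, against WT on the left (bars are the SE) and between edited lines on the right (bars are the 95% interval). GPR97 in SUN2KO is the lowest value against WT, at 1.78, and its differences from SUN2KO (1.14 for LBD, 1.08 for Kashlid) are the largest between lines.

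The location of the genes was not used by the rule. SRPX2 (chromosome X, 99899163 to 99926296 on hg19) and SYTL4 (chromosome X, 99929489 to 99986522) are neighbours with 3192 bases between them; RefSeq places SRPX2 on the plus strand and SYTL4 on the minus strand, so their 3′ ends face each other. The strand setting of the counting is not given in the sources used here, but the annotated bodies of the pair do not overlap. The other genes lie apart: TC2N on chromosome 14 (92246096 to 92302870), ATP8A1 on chromosome 4 (42410392 to 42659122), ZNF300 on chromosome 5 (150273954 to 150284545) and GPR97 on chromosome 16 (57702157 to 57723290). The other tested genes of the X chromosome, 425 without the pair, had a median log2 fold change of 0.06 in LBD, 0.07 in Kashlid and 0.07 in SUN2KO against WT. Chromosome 4, which holds ATP8A1, went the other way, with medians of -0.28, -0.26 and -0.26 over 474 genes.

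Most genes near the 6 showed small differences or none that passed. Within 500 kb lay 47 other tested genes, of which 10 were called higher and 6 lower in LBD against WT, 8 higher and 10 lower in Kashlid, and 10 higher and 5 lower in SUN2KO. That is 34%, 38.3% and 31.9% called, against 40%, 44.5% and 36.7% of all genes (edgeR's quasi-likelihood test). Their medians were 0.09, 0.01 and 0.09, beside 0, 0.01 and 0 for all tested genes. The loci differed. The 8 genes near SYTL4 had medians of 0.21, 0.14 and 0.45, with 2, 1 and 2 called higher. The 7 near SRPX2, a set that largely overlaps, had 0.29, 0.17 and 0.40. The 3 near ATP8A1 went the other way, at -0.20, -0.16 and -0.32. Next to SRPX2, at 7.1 kb, the tetraspanin gene TSPAN6 rose by 0.35 ± 0.07 in LBD, 0.35 ± 0.07 in Kashlid and 0.50 ± 0.07 in SUN2KO (log2, SE; largest adjusted p 0.000433 in edgeR). GPR56, the adhesion receptor gene 3.2 kb from GPR97, fell by 0.27 ± 0.06, 0.36 ± 0.06 and 0.37 ± 0.06 on the log2 scale in the same order (largest adjusted p 0.00167), to 202 ± 8.07, 190 ± 19.1 and 189 ± 8.76 CPM (SD, n = 2), against 244 ± 12.2 in WT.

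The largest increases among the neighbours were of FBLN5 and CCDC69. FBLN5, the gene of the elastic fibre protein fibulin-5, lies 32.9 kb from the annotated hg19 body of TC2N. Its distance from the TC2N promoter starts, given above on another build, was not measured. FBLN5 rose in SUN2KO by 1.87 ± 0.31 (adjusted p = 6.48e-05, edgeR) to 4.37 ± 0.708 CPM, against 1.19 ± 0.00288 in WT (SD, n = 2). In LBD it was at 0.66 ± 0.35 and in Kashlid at 0.53 ± 0.35. It was lower in LBD than in SUN2KO by -1.21 ± 0.28 (adjusted p = 0.00586) and in Kashlid than in SUN2KO by -1.34 ± 0.29 (adjusted p = 0.00223); without SUN2KO replicate 1 these were -1.04 (adjusted p = 0.1) and -1.17 (adjusted p = 0.0511), and without LBD replicate 2 the first was -1.06 (adjusted p = 0.0869). CCDC69, 276.1 kb from ZNF300, rose in Kashlid by 1.85 ± 0.28 (adjusted p = 1.57e-05) to 5.24 ± 0.605 CPM, against 1.45 ± 0.364 in WT. It also passed in LBD (0.94 ± 0.30, adjusted p = 0.0162), though not in DESeq2 (adjusted p = 0.0579) or without LBD replicate 1, LBD replicate 2 or WT replicate 1 (adjusted p = 0.0642, 0.0528 and 0.152), and was at 0.66 ± 0.31 in SUN2KO (adjusted p = 0.099). Near ATP8A1 the zinc transporter gene SLC30A9 fell, by 0.64 ± 0.07 in LBD, 0.70 ± 0.07 in Kashlid and 0.72 ± 0.07 in SUN2KO. The pseudogene ZNF300P1, 25.5 kb from ZNF300, was at 0 counts in all 8 libraries, and SHISA3, 5.9 kb from ATP8A1, was too.

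**Figure D4:**
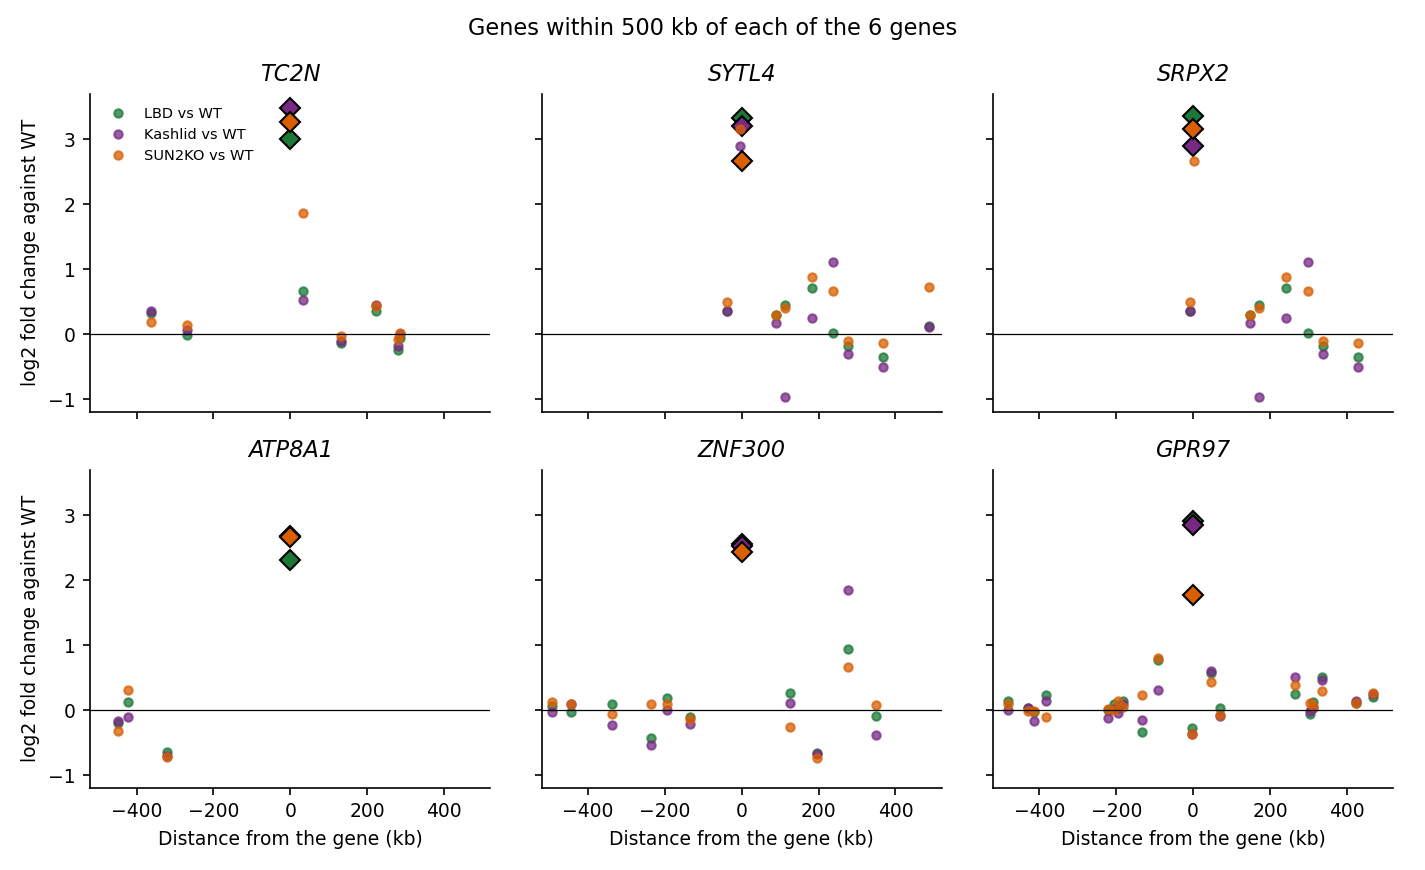
Log2 fold change against WT of every tested gene within 500 kb of each of the 6 genes, by its distance in kb from the gene's edge; diamonds at 0 are the gene itself, and colours are the edited lines. SYTL4 and SRPX2 appear in each other's panel at 3.2 kb, and among the other neighbours the highest are FBLN5 in SUN2KO at 1.87 and CCDC69 in Kashlid at 1.85.

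Patterns were compared over the 8 libraries as log2 CPM minus the WT mean, by the root mean square difference between genes. Among the 6 genes the closest pairs were ATP8A1 with ZNF300 (0.32), SYTL4 with SRPX2 (0.33) and TC2N with SRPX2 (0.37), and the farthest was TC2N with GPR97 (0.86). The measure includes the rise over WT, on which the genes were chosen. Closeness among the 6 is thus in part given by the choice, and nothing is read from it. Outside the 6, the ubiquitin ligase gene RNF125 was closest to TC2N (0.22) and to SRPX2 (0.33) and also near SYTL4 (0.30); its log2 fold changes were 3.31 ± 0.25 in LBD, 3.55 ± 0.24 in Kashlid and 3.11 ± 0.25 in SUN2KO. CCNA1, the gene of the testis-type cyclin A1, was closest to ZNF300 (0.14), at 2.54 ± 0.17, 2.49 ± 0.17 and 2.27 ± 0.17, with 15.1, 14.5 and 12.5 CPM against 2.59 in WT. EYA1 (0.24), a developmental phosphatase gene, was closest to SYTL4 and ELOVL7 (0.28), a fatty acid elongase gene, to ATP8A1. Both were near the floor in WT, at 0.0581 CPM for EYA1 and 0.26 for ELOVL7. The log2 CPM hold a prior count of 2, which shrinks differences of such genes. Without it, EYA1 was at 4.44 ± 0.76 in LBD, 4.37 ± 0.77 in Kashlid and 3.86 ± 0.81 in SUN2KO, above SYTL4 in each. For GPR97 the closest were the ion channel gene TRPV2 (0.25, with only 0.173 CPM in WT), the lipoxygenase gene ALOX5 (0.30) and RASD1 (0.36). ALOX5 was at 2.76 ± 0.18 in LBD, 2.66 ± 0.18 in Kashlid and 1.67 ± 0.20 in SUN2KO, the same order of lines as GPR97, with 16.8, 15.6 and 7.84 CPM against 2.46 in WT. These genes were selected for their likeness, so their values are a description.

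Relatives and partners of the 6 genes were counted in lists that do not contain them. Against WT, 40%, 44.5% and 36.7% of all tested genes were called in LBD, Kashlid and SUN2KO. For the first list, on Rab27, the shares called were 41.7%, 50% and 37.5%. Of 30 genes for Rab27, its effectors and exocytic partners, 24 were tested, of which 5 rose and 5 fell in LBD, 6 rose and 6 fell in Kashlid, and 3 rose and 6 fell in SUN2KO against WT, with medians of 0.06, 0.07 and -0.07 beside 0, 0.01 and 0 for all tested genes. MLPH, a Rab27 effector that links melanosomes to myosin, fell by 1.38 ± 0.25, 1.16 ± 0.24 and 2.54 ± 0.28 on the log2 scale (largest adjusted p 0.000525, edgeR's quasi-likelihood test). EXPH5, another effector, rose by 1.73 ± 0.33 in Kashlid and 1.54 ± 0.33 in SUN2KO (adjusted p = 0.000235 and 0.00104, edgeR). In LBD it was at 0.64 ± 0.37. MYO7A, an unconventional myosin near the floor in WT (0.292 CPM), rose in SUN2KO by 2.24 ± 0.54 to 1.4 CPM (adjusted p = 0.00273, edgeR). It did not pass in LBD (0.93 ± 0.65, adjusted p = 0.276, edgeR) or Kashlid (0.99 ± 0.64, adjusted p = 0.226, edgeR). SYTL2, the relative of SYTL4 named after its values were seen, rose by 1.54 ± 0.24, 0.92 ± 0.26 and 1.43 ± 0.24 (adjusted p = 3.41e-05, 0.0058 and 9.56e-05). RAB27B, a GTPase that SYTL4 binds, named likewise, fell by 0.37 ± 0.06, 0.61 ± 0.06 and 0.50 ± 0.06 to 73.6 ± 0.730, 62.5 ± 1.13 and 67.5 ± 2.36 CPM, against 95.5 ± 1.05 in WT (SD, n = 2; largest adjusted p 4.55e-05). RAB27A, the other Rab27 gene, also named after its values were seen, was higher in LBD by 0.29 ± 0.10 and in Kashlid by 0.31 ± 0.10 (adjusted p = 0.0202 and 0.0117, edgeR) and was at -0.07 ± 0.10 in SUN2KO (adjusted p = 0.596). Its LBD call was lost in DESeq2 and without LBD replicate 2, WT replicate 1 or WT replicate 2 (adjusted p = 0.0812, 0.135, 0.12 and 0.0575). Its Kashlid call was lost in DESeq2 and without Kashlid replicate 2 or WT replicate 1 (adjusted p = 0.0597, 0.054 and 0.0834).

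Of 32 synaptotagmins and other proteins with several C2 domains, 19 were tested; 4 rose and 4 fell in LBD, 5 rose and 6 fell in Kashlid, and 3 rose and 5 fell in SUN2KO, with medians of 0.12, -0.15 and -0.04. The shares called were 42.1%, 57.9% and 42.1% in the same order, beside 40%, 44.5% and 36.7% of all tested genes. MCTP2 and MCTP1, a pair of membrane proteins with C2 domains, rose in all 3 lines. MCTP2 had 33.0 ± 2.85 CPM in LBD, 32.5 ± 0.286 in Kashlid and 26.5 ± 1.24 in SUN2KO, against 8.83 ± 0.128 in WT (SD, n = 2), or 1.90 ± 0.11, 1.88 ± 0.11 and 1.58 ± 0.11 (log2, SE; largest adjusted p 7.21e-10, edgeR). MCTP1 was at 1.29 ± 0.12, 1.26 ± 0.12 and 1.23 ± 0.12 (largest adjusted p 6.95e-08). ESYT3, an extended synaptotagmin gene, passed in Kashlid (-0.72 ± 0.26, adjusted p = 0.0279) but not without Kashlid replicate 1, Kashlid replicate 2 or WT replicate 2 (adjusted p = 0.0592, 0.0798 and 0.192), nor in DESeq2 (adjusted p = 0.0898).

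Flippases and scramblases also went both ways. In LBD, Kashlid and SUN2KO, 46.7%, 60% and 53.3% of those tested were called, beside 40%, 44.5% and 36.7% of all genes. Of 25, 15 were tested; 3 rose and 4 fell in LBD, 4 rose and 5 fell in Kashlid, and 5 rose and 3 fell in SUN2KO, with medians of -0.09, -0.13 and -0.08. ATP9A, a flippase of endosomes, fell to 90.4 ± 2.36 CPM in LBD, 91.1 ± 1.5 in Kashlid and 80.2 ± 0.438 in SUN2KO, against 150 ± 9.70 in WT (SD, n = 2), a log2 change of -0.73 ± 0.06, -0.72 ± 0.06 and -0.90 ± 0.06 (largest adjusted p 5.32e-09, edgeR). ATP8A2, the closest relative of ATP8A1, fell in Kashlid by 1.41 ± 0.42 on the log2 scale (adjusted p = 0.00948), and was at -1.28 (adjusted p = 0.0632) without Kashlid replicate 1 and -1.02 (adjusted p = 0.149) without WT replicate 1. XKR8, a scramblase gene, fell in SUN2KO by 1.09 ± 0.30 (adjusted p = 0.00677), and was at -0.90 (adjusted p = 0.0844) without SUN2KO replicate 1 and -0.72 (adjusted p = 0.16) without WT replicate 2.

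Of 25 sushi repeat genes and partners of SRPX2, 13 were tested; 3 rose and 5 fell in LBD, 2 rose and 6 fell in Kashlid, and 2 rose and 3 fell in SUN2KO, with medians of -0.40, -0.27 and -0.11. The shares called were 61.5%, 61.5% and 38.5% in the same order, beside 40%, 44.5% and 36.7% of all tested genes. SUSD5 fell by 1.42 ± 0.19, 1.63 ± 0.20 and 1.04 ± 0.18 on the log2 scale (largest adjusted p 0.000143, edgeR). The urokinase gene PLAU fell in LBD by 0.95 ± 0.31 (adjusted p = 0.0179) and in SUN2KO by 1.5 ± 0.32 (adjusted p = 0.00101); the LBD call was lost without WT replicate 2 (-0.56, adjusted p = 0.292), LBD replicate 1 (adjusted p = 0.0769) or LBD replicate 2 (adjusted p = 0.0776), and in DESeq2 (adjusted p = 0.0783). SUSD2 passed in Kashlid (-1.13 ± 0.36, adjusted p = 0.0148), but not without Kashlid replicate 2 (adjusted p = 0.0933) or WT replicate 1 (adjusted p = 0.0886), nor in DESeq2 (adjusted p = 0.0673). PLAUR, the urokinase receptor that SRPX2 binds, named after its values were seen, rose to 112 ± 14.6 CPM in LBD and 90.0 ± 7.32 in Kashlid and was 64.2 ± 4.29 in SUN2KO, against 69.8 ± 2.81 in WT (SD, n = 2), with log2 fold changes of 0.68 ± 0.08, 0.37 ± 0.08 and -0.12 ± 0.08 (adjusted p = 9.28e-07, 0.000918 and 0.275).

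Of 31 adhesion receptor genes other than GPR97, 30 were in the table and 16 were tested; 3 rose and 7 fell in LBD, 3 rose and 4 fell in Kashlid, and 1 rose and 7 fell in SUN2KO, with medians of -0.16, -0.03 and -0.22. EMR2, a receptor of myeloid cells, rose to 86.2 ± 1.93 CPM in LBD and 77.3 ± 2.42 in Kashlid and was 56.2 ± 1.89 in SUN2KO, against 54.3 ± 0.229 in WT (SD, n = 2). Its log2 fold changes were 0.67 ± 0.06, 0.51 ± 0.06 and 0.05 ± 0.07 (adjusted p = 5.78e-08, 1.98e-06 and 0.599, edgeR). Like GPR97 it was higher in LBD and in Kashlid than in SUN2KO, by 0.62 ± 0.06 and 0.46 ± 0.06 (adjusted p = 5.78e-07 and 2.63e-05). So was CELSR3, named after its values were seen, by 0.62 ± 0.06 and 0.67 ± 0.06 (adjusted p = 3.23e-07 and 8.69e-08, edgeR). Unlike GPR97, CELSR3 was below WT in SUN2KO, at -0.29 ± 0.06 (adjusted p = 0.000792, edgeR). Against WT it was at 0.33 ± 0.06 in LBD and 0.38 ± 0.06 in Kashlid. Of the 16 tested, 2 were higher and 1 lower in LBD than in SUN2KO, with the same numbers for Kashlid. That is 18.8% called in each, beside 13.5% of all tested genes for LBD and 18% for Kashlid. Against WT, the list had 62.5%, 43.8% and 50% called in LBD, Kashlid and SUN2KO, beside 40%, 44.5% and 36.7% of all. GPR133 had 0 counts in LBD, 1 in Kashlid and 1 in SUN2KO, against 23 in WT. It was at least 7.58-fold lower in LBD (with a floor of 3 counts summed over its libraries), 22.9-fold lower in Kashlid (95% counting interval 3.73 to 945) and 24.8-fold lower in SUN2KO (4.02 to 1020). GPR64 passed in LBD (-1.34 ± 0.32, adjusted p = 0.00189) but not without WT replicate 1 (-1.01, adjusted p = 0.0539).

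All 15 genes of the KRAB co-repressor list were tested; 3 rose and 3 fell in LBD, 6 rose and 4 fell in Kashlid, and 5 rose and 1 fell in SUN2KO, with medians of 0.01, 0.05 and 0.06. The shares called were 40%, 66.7% and 40% in the same order, beside 40%, 44.5% and 36.7% of all tested genes. CBX3, a heterochromatin protein, fell by 0.59 ± 0.05, 0.59 ± 0.05 and 0.51 ± 0.05 on the log2 scale (largest adjusted p 4e-08, edgeR). The histone chaperone gene DAXX rose by 0.43 ± 0.06, 0.43 ± 0.06 and 0.32 ± 0.06 (largest adjusted p 0.000237, edgeR). ATRX, the partner of DAXX, rose in Kashlid by 0.39 ± 0.06 and in SUN2KO by 0.26 ± 0.06 (adjusted p = 7.53e-06 and 0.000853). TRIM28, to which many KRAB proteins bind, named after its values were seen, was at 0.04 ± 0.05, -0.11 ± 0.05 and 0.03 ± 0.05 and did not pass. Across the 6 lists, the share of tested members called in a comparison with WT was 37.5% to 66.7%, beside 36.7% to 44.5% of all genes, and the list medians lay between -0.40 and 0.12.

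**Figure D5:**
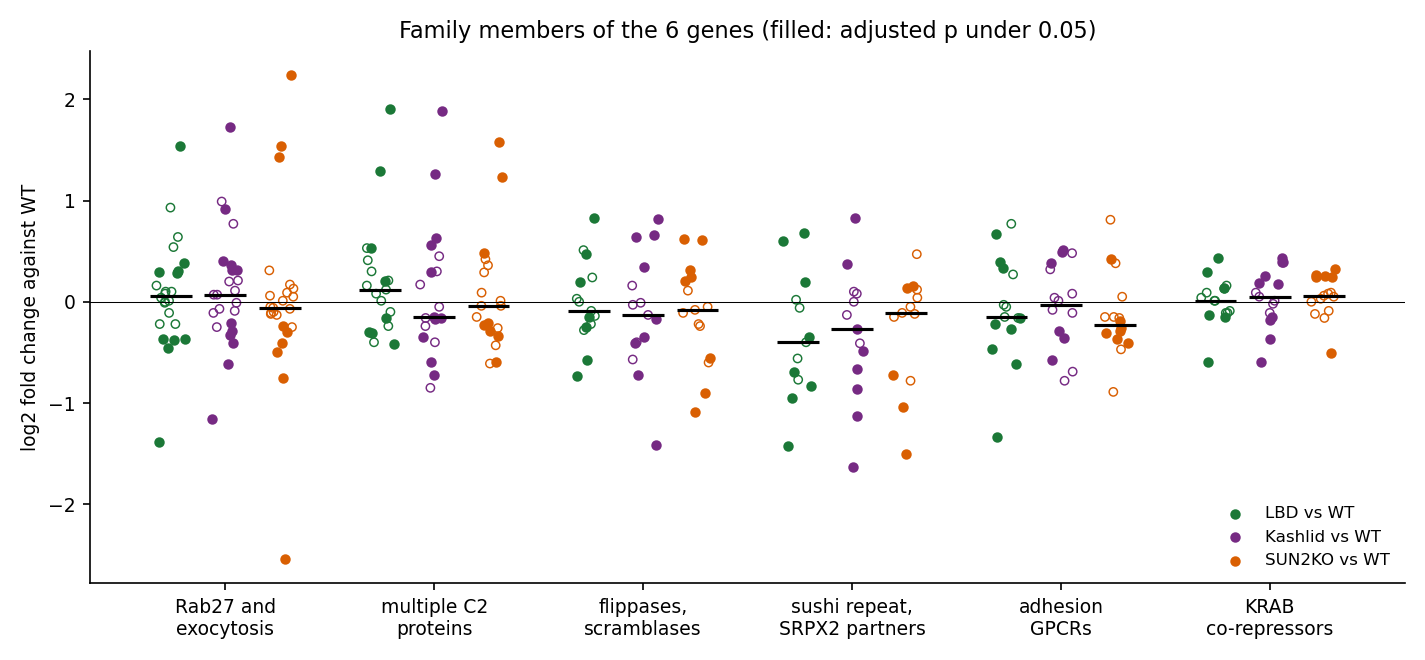
Log2 fold change against WT of the tested members of 6 lists of relatives and partners, by edited line; filled points have an adjusted p under 0.05, open points do not, and black lines are list medians (GPR133, with at most 1 count in an edited line, enters the medians but is not drawn). The medians lie between -0.40 and 0.12, while single genes such as MCTP2, at 1.58 to 1.90, stand above their list.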

How the data were processed

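RNA from 10000000 cells per sample was sequenced in 8 libraries (NEBNext Ultra kit, paired-end NovaSeq reads), per the labels. The submitters' processing notes name Trim Galore, STAR 2.7.1a, bedtools 2.24.0, HTSeq and DESeq2, with hg19. The deposited table holds an unnormalized read count for each gene and library. The authors' deposited comparison tables hold log2 fold changes and p-values without column names. These columns were identified by their correlation with recomputed fold changes (r = 0.999 across genes) and by the Benjamini-Hochberg relation between the p-value columns; 12 unnamed columns of per-library values were not used. Beyond the LBD fold changes quoted, those tables gave gene positions.

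For testing, edgeR 4.0.16 (R 4.3.3) took TMM scaling and its filterByExpr filter, and a quasi-likelihood model held the 4 groups as separate terms across all 8 libraries (residual degrees of freedom 4). All p-values are two-sided and adjusted over 14016 genes. As alternatives, scaling used median ratios or totals alone; the filter was dropped or raised to 5 CPM in 2 libraries; DESeq2 1.42.0 replaced edgeR; only the compared groups were fitted; replicate number entered as a block; single libraries were removed; and neighbours were taken within 1000 kb. Scripts were tested on simulated data. Both libraries of each group differed by more than counting noise (chi-square per degree of freedom 2.51 to 5.6). The 6 genes, the lists and the alternatives were chosen with earlier results of these data known. Other genes were named by rule: up to 3 per list that passed against WT, by size; the 3 nearest in pattern to each of the 6 (described in part); and tested genes within 500 kb (mostly as counts). Depth was 16570099 to 18814795 counts per library.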

Additional observations from a re-analysis of the deposited data

How the results depend on the processing

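Depth limits the 6 genes most in WT, where each library held 22 to 76 counts of a gene. Their 198 values against WT in the alternatives kept their sign and moved by less than 1 SD of the libraries, the larger SD of the compared groups. Neither is a strict check. The genes were chosen for large increases, and leaving out 1 of 2 libraries moves a group mean by less than their SD. When 1 library was left out, ATP8A1 varied most, at 1.98 to 2.77 in LBD and 2.33 to 3.10 in SUN2KO. Between edited lines, 186 of 192 values of the 6 genes kept their side of the threshold, and the 5 lost calls and 1 gained call are the TC2N, SYTL4 and SRPX2 values given with their comparisons. DESeq2 gave no adjusted p for the 6 genes in LBD against Kashlid. Of 131 calls of other named or neighbouring genes, 46 were lost in at least 1 alternative and 85 in none. Calls of CELSR3 were not among them.

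Counts of genes called moved by over 1.5 times only between edited lines. LBD against Kashlid gave 408 genes, 775 with no filter and 129 in a fit of the 2 groups alone, and 129 to 839 without 1 library (839 without Kashlid replicate 2, 129 without LBD replicate 1, 138 without LBD replicate 2). LBD against SUN2KO gave 1890 genes, 1247 in DESeq2 and 884 to 1355 without 1 library (884 without LBD replicate 2, 885 and 1097 without SUN2KO replicates 1 and 2). Kashlid against SUN2KO gave 2529 genes and 1186 to 2375 without 1 library (1186 and 1622 without SUN2KO replicates 1 and 2). Against WT, leaving out 1 library gave 4014 to 4347 genes in LBD, 4720 to 5606 in Kashlid and 3569 to 3640 in SUN2KO, from 5611, 6232 and 5137. The cause was not tested.

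Replicate numbers are shared across groups but no label says they pair samples, and deviations of same-numbered libraries correlated at -0.01 to 0.08. With a replicate block, the counts called were 5798, 6457 and 5412 in LBD, Kashlid and SUN2KO against WT, 2134 for LBD against SUN2KO, 2787 for Kashlid against SUN2KO and 581 for LBD against Kashlid, and no call of the 6 genes changed. The window of 1000 kb left the medians of genes near the 6 at 0.04, 0.02 and 0.09 in LBD, Kashlid and SUN2KO.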
